A study of Arabidopsis thaliana with 4 samples.

Results

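Roots of Arabidopsis thaliana seedlings that had grown beside the fungus Piriformospora indica were followed from 2 d to 6 d of co-cultivation, by dividing the signal of the 6 d exposed array by that of the 2 d exposed array. Of the 22746 probe sets kept after 64 control probe sets were left out, 14276 entered this comparison, because at least 1 array of the pair exceeded a floor of 22.2. All seedlings were Columbia wild type. Exposed roots had received an agar plug with P. indica mycelium some distance from the root, on nylon membranes over agar medium, and mock-treated roots a plug without mycelium. By their labels the seedlings of the 2 d arrays were 12 d old and those of the 6 d arrays 16 d, so the length of co-cultivation and the age of the seedlings cannot be told apart. By the study's account, root and hyphae were still apart at the earlier time and had met at the later one. The same ratio between the 6 d and 2 d mock arrays, over 14242 probe sets, was set beside each value, and the exposed and mock pairs share no array. There is 1 array per condition, so every difference is a size with no error and no p-value.

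Photosynthetic complexes of plants are assembled from subunits encoded in the nucleus and subunits encoded in the plastid's own genome, and root plastids usually remain non-green although roots in the light can green. Growing roots loosen and rebuild their walls with expansins, xyloglucan-modifying enzymes (XTH) and secreted class III peroxidases, which are abundant in the epidermis and its root hairs. P. indica colonizes the root epidermis and lives there without causing disease, and roots meet it with chitinases and other secreted proteins that act on microbes. These are the functions by which the shifts are ordered here.

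An ATH1 array reads most genes by 1 probe set near the 3′ end of the transcript, and the MAS5 signal is a linear brightness that does not allow the levels of different genes to be compared. The labels call the tissue root, although their free description speaks of early embryos and their RNA protocol covers roots and shoots. PYK10, the beta-glucosidase of root endoplasmic reticulum bodies, stood at 3542 at 2 d and 4468 at 6 d in exposed roots and 3098 and 3864 in mock roots. Of 10 listed root markers only 2 could be named, PYK10 and the root hair gene EXPA7. EXPA7 was dimmer at 6 d, at 281 at 2 d and 163 at 6 d in exposed and 202 and 150.3 in mock roots. Of 10 listed shoot markers 4 could be named (LHCB4.1, RCA, PRK and SBPASE). They summed to 317 at 2 d and 802 at 6 d in exposed roots, and to 425 and 559 in mock roots. Only PRK lay under the floor, on the 2 d exposed array. In both pairs the 5′ probe sets of actin and GAPDH were dimmer at 6 d, while the 5′ probe sets of ubiquitin differed, one with log2 ratios of -0.03 in exposed and 0.03 in mock roots and the other with -0.44 and -0.10. The 3′ probe set of actin was 6.54 times as bright as the 5′ probe set at 2 d and 29.5 times at 6 d in exposed roots, against 7.99 and 34.2 in mock roots. The probe set for 25S ribosomal RNA went from 28.6 to 1129 in exposed and from 78.1 to 1116 in mock roots. All 18 hybridization control probe sets, which read added RNA of bacterial and phage P1 genes, were brighter at 6 d in both pairs. Their log2 ratios ranged from 0.41 to 2.25 in exposed roots, the largest in bioC, with medians of 0.59 in exposed and 0.54 in mock roots. Scaling to the mean of their log2 signals lowered the median of all probe sets to -0.84 in both pairs, by more than the controls' own medians. Another summary of the controls would give another shift. The directions below are relative to the deposited scale, on which the medians of all probe sets were 0.01 and 0.00.

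In exposed roots 289 probe sets were more than 2-fold higher at 6 d than at 2 d (2.02% of those measured) and 395 were more than 2-fold lower (2.77%). Past 3-fold, 56 were higher (0.392%) and 103 lower (0.721%). The mock pair had fewer on both sides, with 160 more than 2-fold higher (1.12%) and 335 lower (2.35%). At 3-fold it had 27 higher (0.19%) and 94 lower (0.66%). Most shifts in exposed roots had a counterpart in mock roots. Of the 289 higher probe sets 277 were also above 0 between the mock arrays, 75 of them by more than 2-fold, and of the 395 lower ones 388 were below 0 and 214 by more than 2-fold. Across the 13909 probe sets measured in both pairs the log2 ratios correlated with Pearson's r = 0.75 and Spearman's rho = 0.70. These points come from the same 4 arrays and are not independent. After scaling to the hybridization controls the exposed pair had 24 higher and 5294 lower, and the floor and the limit also moved all counts.

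**Figure D1:**
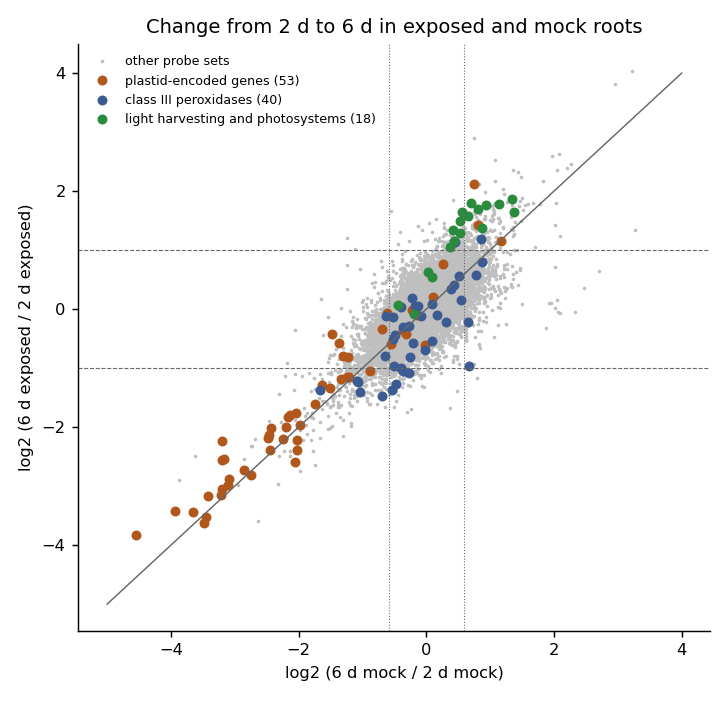
Each point is a probe set measured in both pairs, with the log2 ratio of the 6 d over the 2 d mock array on the x axis and of the 6 d over the 2 d exposed array on the y axis. Dashed lines mark 2-fold in exposed roots, dotted lines 1.5-fold in mock roots, and the solid line equal ratios. All 18 photosynthesis genes lie above the line of equal ratios, and most of the 53 plastid-encoded genes lie far down along it; scaling to the hybridization controls would shift all points by about -0.84.

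Single-gene names were found for 123 of the 289 higher and 228 of the 395 lower probe sets, and the others have no single gene in the annotation used here. AT1G52820, of the 2-oxoglutarate-dependent dioxygenase family, rose most among the named genes. Its signal in exposed roots was 21.8 at 2 d and 312 at 6 d, at least 14.1-fold higher, and in mock roots 7.9 and 172, at least 7.76-fold higher. AT5G10770, of the aspartyl protease family, was at 22.1 at 2 d and 165 at 6 d in exposed roots, at least 7.43-fold higher, and at 79.3 and 133 in mock roots, where the log2 ratio was 0.75. Both genes were under the floor in exposed roots at 2 d, but in mock roots only the dioxygenase gene was. AT5G38980 was at 32.8 at 2 d and 202 at 6 d in exposed roots (log2 2.62) and at 31.3 and 132 in mock roots (log2 2.08). The caffeoyl-CoA O-methyltransferase family gene CCOAMT went from 27.9 to 140.3 in exposed roots and from 18.3 to 60.3 in mock roots. AT4G14060, of the major latex protein family, went from 75.9 to 341 in exposed roots, close to the 74.2 and 265 of mock roots. AT4G37550, of the formamidase family, was at 60.8 at 2 d and 214 at 6 d in exposed and 67.3 and 162 in mock roots. DFR, which makes leucoanthocyanidins in anthocyanin synthesis, was under the floor at 2 d in both pairs and at least 2.7-fold higher at 6 d in exposed and 1.68-fold in mock roots. These largest rises were therefore shared in direction by the mock pair. BGLU44, a beta-glucosidase gene, lay just under the 2-fold limit at 86.7 at 2 d and 173 at 6 d in exposed roots (log2 0.99), and AT3G19515 just above it at 92.4 at 2 d and 185 at 6 d (log2 1.00).

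The nuclear genes for light harvesting and the photosystems that could be measured rose together in exposed roots, and less in mock roots. The list held 71 loci, but only 20 of its genes could be named and 18 were measured, so most of it was not assessed. At 6 d 14 were more than 2-fold higher (2.02% over all probe sets) and none was lower by that much. The median log2 ratio was 1.44 against 0.01 over all probe sets. In mock roots 3 of the 18 were more than 2-fold higher (1.12% over all probe sets) and the median was 0.55. After scaling to the hybridization controls the mock median became -0.29, while the exposed median stayed above 0 at 0.59 and 0 genes of the list passed 2-fold. The exposed ratio was the larger one for all 18 genes, by a median of 0.71. PSAE-1, a subunit on the stromal side of photosystem I, was at 76.7 at 2 d and 280.2 at 6 d in exposed roots and at 83.6 and 212 in mock roots. The chlorophyll-binding antenna proteins of photosystem II named CP29 are encoded by 3 genes, all of which were brighter at 6 d. LHCB4.2 was at 48.7 at 2 d and 166 at 6 d in exposed roots (mock 54.0 and 103), and LHCB4.1 at 125 at 2 d and 352 at 6 d (mock 179 and 259.8). LHCB4.3 was at 22.9 at 2 d and 72.0 at 6 d in exposed roots against 22.8 and 59.3 in mock roots, the smallest gap between pairs among the 3 genes. AT2G26500, which encodes a small subunit of the cytochrome b6f complex, reached the highest signal of the list at 6 d, 515 from 150.5, with 188 and 412 in mock roots. The thylakoid phosphoprotein gene AT3G47070 went from 35.2 to 123 (mock 52.0 and 84.8), and NdhS, of the NADH dehydrogenase-like complex, from 30.2 to 97.9 (mock 52.7 and 92.1). PSBW, a small subunit of photosystem II, was at 72.5 at 2 d and 226 at 6 d in exposed roots and changed less in mock roots, from 115 to 169.7. The only gene below 0 in exposed roots was PGRL1B, which acts in cyclic electron flow, at 53.3 at 2 d and 50.4 at 6 d.

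**Figure D2:**
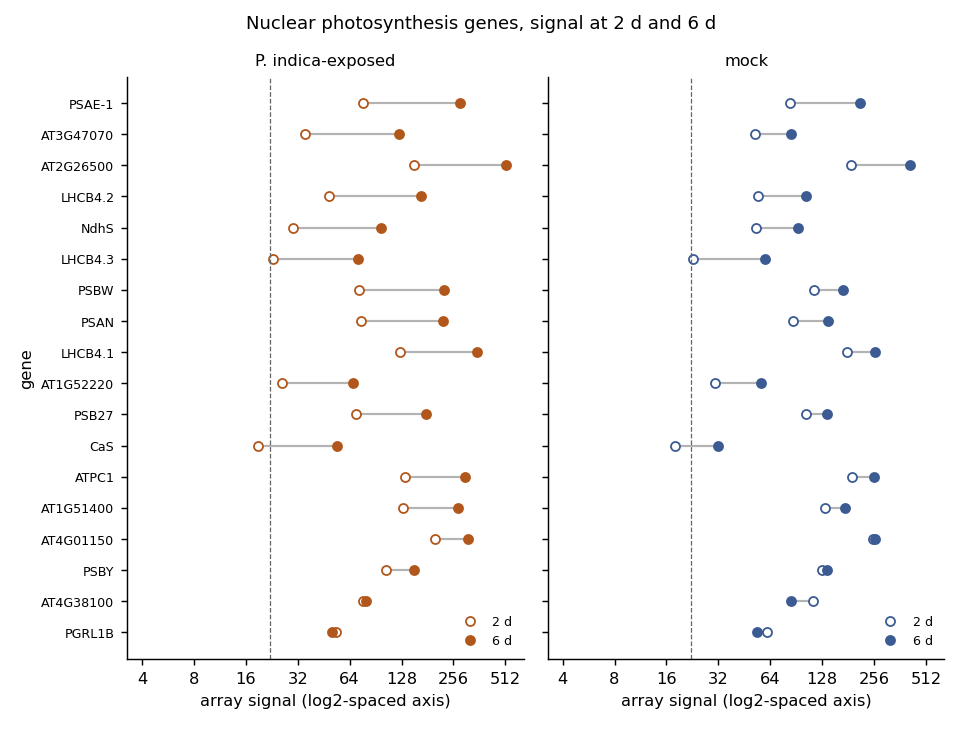
Signals of the 18 measured nuclear photosynthesis genes at 2 d (open) and 6 d (filled) in exposed roots (left) and mock roots (right), on log2-spaced axes; the dashed line is the floor of 22.2. In exposed roots 17 genes were brighter at 6 d and in mock roots 16, with shorter steps.

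The wider step in exposed roots came from both ends. Relative to the mock array of the same day, 16 of the 18 genes were dimmer in exposed roots at 2 d (median -0.31 on the log2 scale) and 16 were brighter at 6 d (median 0.35). The summed signal of the 20 named genes was 1458 in exposed and 1873 in mock roots at 2 d, and 3532 and 2739 at 6 d. The 4 shoot markers, which are also members of the light harvesting or Calvin cycle lists and so no separate observation, had 3 genes more than 2-fold higher in exposed roots and a median of 1.48 against 0.83 in mock roots, the latter -0.062 after scaling to the hybridization controls. The part of shoot tissue in the photosynthesis result was not tested. In RNA from whole roots, fewer cells of a type and less RNA per cell cannot be told apart.

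Genes of carbon fixation and photorespiration had smaller medians, although single genes among them rose as far as any of the photosystem genes. PRK, phosphoribulokinase of the Calvin cycle, was at 16.3 at 2 d and 90.5 at 6 d in exposed roots, at least 4.08-fold higher, and at 22.3 and 51.2 in mock roots, 2.3-fold higher. SBPASE, sedoheptulose bisphosphatase of the same cycle, was at 23.0 at 2 d and 63.1 at 6 d in exposed and 22.6 and 49.5 in mock roots. RCA, the activase of Rubisco, was at 152 at 2 d and 296 at 6 d in exposed roots (log2 0.96) and at 201 and 199 in mock roots (log2 -0.02), so it missed the 2-fold limit in one and was level in the other. From 21 listed Calvin cycle loci only 4 genes were measured, with medians of 1.21 in exposed and 0.62 in mock roots. After scaling to the hybridization controls the mock median was -0.27. HPR, hydroxypyruvate reductase of photorespiration, went from 36.6 to 145 in exposed roots and from 53.1 to 100.5 in mock roots. AT1G32470, an H protein of glycine decarboxylase, went from 44.2 to 129 (mock 47.9 and 105). It was the second past 2-fold of 5 measured photorespiration genes, from 15 loci listed. The other 3 lay between -0.31 and 0.67, and the median of the list, 0.67, became -0.25 after scaling to the hybridization controls. Of 5 measured genes of chlorophyll synthesis, from 18 loci listed, 1 passed 2-fold in each pair. It was PORB, protochlorophyllide oxidoreductase, at 50.3 at 2 d and 171 at 6 d in exposed and 41.3 and 121 in mock roots. ALDH11A3, a cytosolic glyceraldehyde-3-phosphate dehydrogenase, was at 20.5 at 2 d and 96.2 at 6 d in exposed roots, at least 4.33-fold higher, and at 36.2 and 64.1 in mock roots.

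Plastid-encoded genes moved the other way in both pairs. Of 69 named genes 53 were measured in exposed roots. At 6 d 35 were more than 2-fold lower (2.77% over all probe sets) and 3 more than 2-fold higher (2.02%). The median log2 ratio was -1.79. In mock roots 38 of 55 were more than 2-fold lower (2.35% over all probe sets) and 1 higher (1.12%), with a median of -1.98. Of the 35, 34 were lower past 2-fold there too. The summed signal of the 69 genes went from 14485 to 7498 in exposed and from 16399 to 6584 in mock roots. The alpha and beta subunit genes of the ATP synthase showed the size of the fall. atpA was at 488 at 2 d and 34.4 at 6 d in exposed roots (log2 -3.83) and at 599 and 25.6 in mock roots (log2 -4.55), and atpB was at 1254 at 2 d and 139.9 at 6 d in exposed roots (mock 1462 and 137). The protease subunit gene clpP was at 722 at 2 d and 62.5 at 6 d in exposed and 639 and 58.3 in mock roots, and petB, for cytochrome b6, at 1507 at 2 d and 227 at 6 d in exposed roots (mock 1386 and 192). For psbH and psbK, small subunits of photosystem II, the 6 d signals were under the floor on both arrays, so exposed roots were at least 12.4-fold and 10.9-fold lower. The fall spanned functions, since rps4, a ribosomal protein gene, went from 278 to 53.1 and accD, for a subunit of acetyl-CoA carboxylase, from 176 to 6.7 in exposed roots.

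The exceptions were 3 genes that were more than 2-fold higher in exposed roots. psbM, for a small subunit of photosystem II, was at 601 at 2 d and 2621 at 6 d in exposed and 1108 and 1861 in mock roots, and ndhC, of the NADH dehydrogenase-like complex, at 149.7 at 2 d and 404 at 6 d (mock 206 and 363). rpoA, for the alpha subunit of the plastid RNA polymerase, was at 272 at 2 d and 601 at 6 d in exposed and 382 and 859 in mock roots, the only plastid-encoded gene past 2-fold higher in the mock pair. ndhC and rpoA were named after their values were seen.

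**Figure D3:**
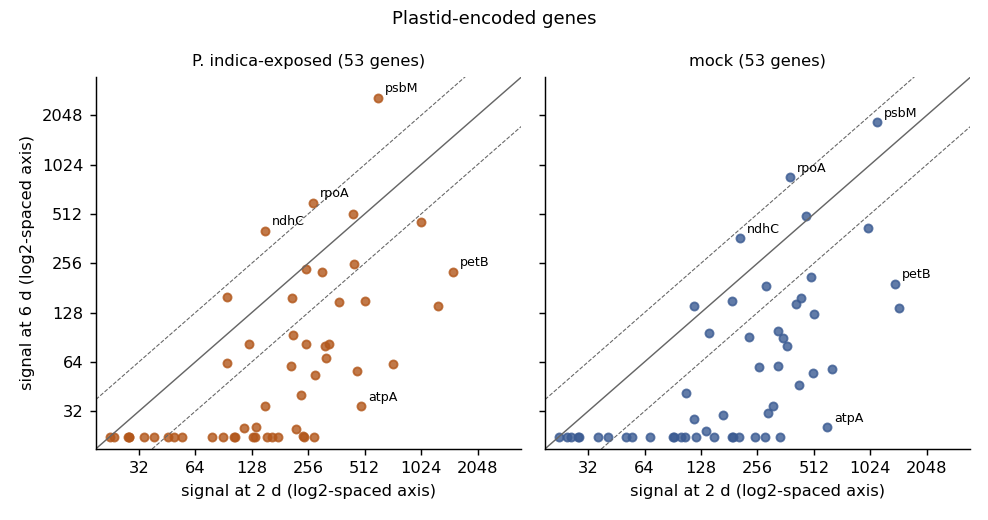
Signals of the 53 plastid-encoded genes measured in exposed roots, 2 d on the x axis and 6 d on the y axis, both log2-spaced, for exposed (left) and mock roots (right). Signals under the floor are drawn at 22.2, the solid line marks equal signals and the dashed lines 2-fold; 35 genes lie below the lower dashed line in exposed roots.

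The change in 5′ signal described for actin lies beside all falls. Among 72 nuclear genes with several measured probe sets, 31 had a probe set more than 2-fold lower in exposed roots beside another that was not, 1 had every probe set that low, and none had a probe set more than 2-fold higher. In these 31 genes the lower probe set had a median log2 ratio of -1.36 in exposed and -1.39 in mock roots, and the other one 0.07 and -0.09. Each plastid-encoded gene was read by 1 probe set only. The part of 5′ signal in the falls was not tested.

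Among the nuclear genes that fell in both pairs, AT4G12490 and AT4G12500, neighbouring genes of the EARLI1-type lipid transfer family, fell most. AT4G12490 was at 273 at 2 d and 6.1 at 6 d in exposed roots, at least 12.3-fold lower, and at 248 and 15.5 in mock roots. AT4G12500 was at 165 at 2 d and 7.8 at 6 d, at least 7.43-fold lower, and at 326 and 18.3 in mock roots. The sequences of these genes are alike, so their signals may not be separate. TPS-CIN, a synthase of the monoterpene 1,8-cineole in roots with a near-identical neighbour, was at 203 at 2 d and 38.5 at 6 d in exposed and 214 and 45.5 in mock roots. AT3G55020, of the Rab GTPase-activating family, was at 98.8 at 2 d and 24.1 at 6 d in exposed and 96.4 and 33.3 in mock roots. All of these fell by more than 2-fold with and without the fungus.

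Genes that loosen and extend the wall were mostly dimmer at 6 d, and some fell further in exposed than in mock roots. Of 13 measured expansins 2 were more than 2-fold lower in exposed roots (2.77% over all probe sets) and none higher. Their median was -0.73 against -0.43 in mock roots. Gene by gene the lower ratio was in exposed roots for 7 and in mock roots for 6 of the 13, and a median difference of -0.10. EXPB1 was at 160.4 at 2 d and 58.3 at 6 d in exposed (mock 164 and 80.1) and EXPA9 at 295 at 2 d and 108 at 6 d (mock 327 and 118), and both passed 2-fold in both pairs. Among root hair expansins the fall in exposed roots was larger than in mock roots without passing 2-fold. EXPA7 had a log2 ratio of -0.78 in exposed and -0.43 in mock roots, and EXPA18 was at 328 at 2 d and 198 at 6 d (log2 -0.73), with 233 and 229 in mock roots (log2 -0.02). XTH26, a root hair xyloglucan enzyme, was at 87.5 at 2 d and 12.7 at 6 d in exposed roots, at least 3.94-fold lower, and at 51.7 and 22.7 in mock roots. XTH18 was at 375 at 2 d and 178 at 6 d in exposed roots, 2.11-fold lower, while mock roots stood at 327 and 295. Of the 9 measured XTH genes 7 had the lower ratio in exposed roots, and the medians were -0.30 and -0.14. None of the 10 measured genes of cellulose and hemicellulose synthesis passed 2-fold, with medians of -0.44 in exposed and 0.01 in mock roots. Their largest falls were in CSLC6, a glucan synthase for xyloglucan, at 119 at 2 d and 64.8 at 6 d (mock 137 and 96.7), and GUT2, for xylan, at 62.5 at 2 d and 34.3 at 6 d (mock 70.9 and 38.0).

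Class III peroxidases were split. Of 42 measured genes of 55 named, 9 were more than 2-fold lower in exposed roots (2.77% over all probe sets) and 2 higher (2.02%). In mock roots 4 of 40 were that much lower (2.35%) and none higher. The medians were similar, -0.29 and -0.24. In 8 of the 9 the exposed fall was the larger, and 4 of the 9 changed by less than 1.5-fold in mock roots. The 9 were chosen by their exposed ratio, which fixes part of this. Over the 40 genes measured in both pairs the exposed ratio was the lower in 27 and the higher in 13, with a median difference of -0.14. AT3G49960 was at 557 at 2 d and 201 at 6 d in exposed and 373 and 230.1 in mock roots. AT4G11290 was at 513 at 2 d and 212 at 6 d in exposed and 338 and 244 in mock roots, and AT1G34510 at 109.6 at 2 d and 42.5 at 6 d (mock 66.9 and 46.3). In these 3 genes the exposed array was the brighter of the 2 d pair and the dimmer of the 6 d pair. The 4 under 1.5-fold in mock roots were AT4G11290, AT1G34510, AT1G30870 and AT2G39040, while AT3G49960 changed there by 1.62-fold. AT1G30870 was at 1011 at 2 d and 479.7 at 6 d in exposed roots (mock 725 and 601). AT2G39040 was at 106 at 2 d and 51.3 at 6 d in exposed roots (mock 82.4 and 64.0). AT5G64120 was at 839 at 2 d and 324 at 6 d in exposed roots and fell further in mock roots, from 663 to 209.9. The 2 that rose were AT4G08780, at 48.3 at 2 d and 111 at 6 d (mock 57.6 and 105), whose near-identical neighbours may share its probes, and AT2G41480, at 119 at 2 d and 261 at 6 d (mock 182 and 248). The brightest member, PRXR1, stayed near level at 3735 at 2 d and 3945 at 6 d.

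**Figure D4:**
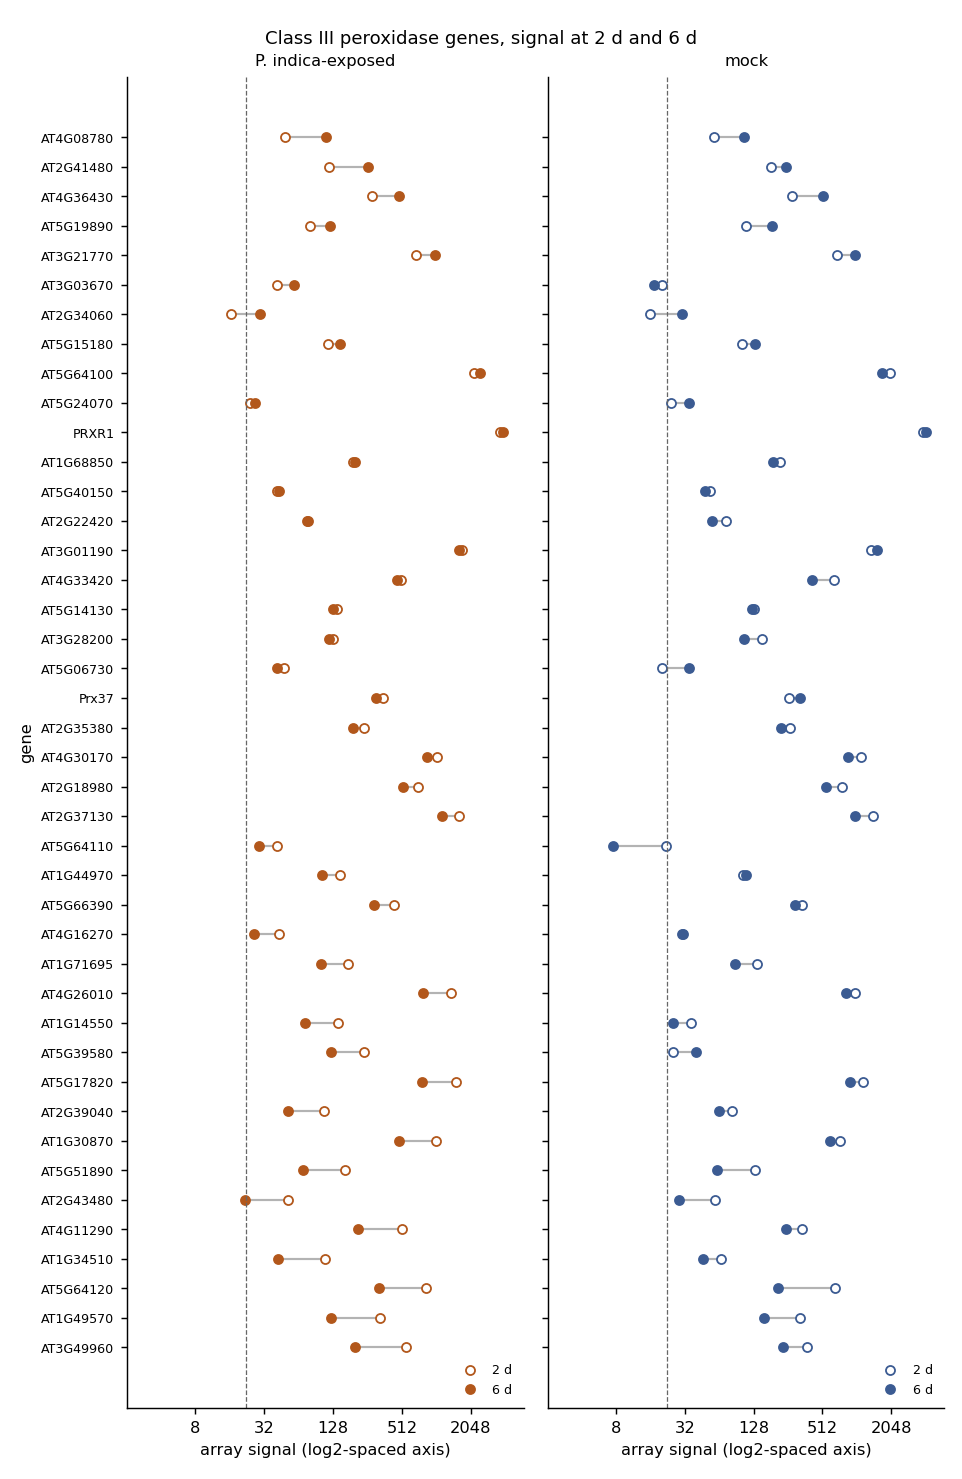
Signals of the 42 class III peroxidase genes measured in exposed roots at 2 d (open) and 6 d (filled), ordered by the exposed ratio, in exposed (left) and mock roots (right), on log2-spaced axes with the floor of 22.2 dashed. The 9 genes at the bottom were more than 2-fold lower in exposed roots and the 2 at the top more than 2-fold higher.

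Genes induced at low oxygen in Arabidopsis seedlings were brighter at 6 d in exposed roots. From 52 loci listed, 26 genes were named and 18 measured. Of these 18, 17 were above 0 and 5 more than 2-fold higher (2.02% over all probe sets). Their median was 0.62 (-0.24 after scaling to the hybridization controls). In mock roots 10 of 17 were above 0, 1 was more than 2-fold higher (1.12% over all probe sets) and 1 lower (2.35%). The mock median was 0.28 (-0.62 after that scaling). AT4G10270, of the wound-responsive family, was at 18.0 at 2 d and 99.4 at 6 d in exposed roots, at least 4.48-fold higher, and at 16.2 and 46.8 in mock roots. AT1G33055 was at 51.8 at 2 d and 182 at 6 d in exposed and 41.1 and 65.6 in mock roots, and AT4G27450 at 160.1 at 2 d and 384 at 6 d (mock 187 and 241). The other 2 genes past 2-fold moved in opposite directions with and without the fungus. AT1G19530 was at 88.0 at 2 d and 280.1 at 6 d in exposed roots (log2 1.67) and at 288 and 197 in mock roots (log2 -0.55). AT4G39675 was at 245 at 2 d and 609 at 6 d in exposed roots (log2 1.31) and at 605 and 454 in mock roots (log2 -0.41). In both genes the 2 d exposed array was the dimmest of the 4 and the 2 d mock array brighter than the 6 d mock array. PDC2, a pyruvate decarboxylase of ethanol fermentation, was at 232 at 2 d and 374 at 6 d in exposed and 314 and 420.3 in mock roots, within 2-fold in both.

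Listed genes linked to defence against microbes (chitinases and PR proteins, berberine bridge enzymes and germins, WRKY factors) were mostly near level or lower in exposed roots. Defence genes outside these lists were not assessed as a group. The chosen list of chitinase and PR protein genes does not hold every such gene. None of its 8 measured genes passed 2-fold in either pair, and the medians were -0.37 in exposed and -0.10 in mock roots. All 8 were brighter in exposed than in mock roots on both days, by a median log2 of 0.72 at 2 d and 0.27 at 6 d. The chitinase family gene AT4G01700 was at 630.4 at 2 d and 353 at 6 d in exposed and 349.9 and 309 in mock roots, and AT2G43570 (CHI) at 447 at 2 d and 344 at 6 d (mock 73.1 and 108). Berberine bridge enzyme and germin genes were within 2-fold in all 9 measured cases in exposed roots, with a median of -0.06. In mock roots 3 of 8 were more than 2-fold higher (1.12% over all probe sets), with a median of 0.77. AT1G26380, of the berberine bridge enzyme family, was at 298 at 2 d and 380.1 at 6 d in exposed roots and went from 15.4, under the floor, to 122 in mock roots. AT5G38910, of the same list, was at 546.5 at 2 d and 435.5 at 6 d in exposed roots and went from 5.9, also under the floor, to 81.1 in mock roots. The mock rises of these genes are therefore lower bounds. Of 6 measured WRKY transcription factor genes 1 passed 2-fold in exposed roots, WRKY47, at 53.2 at 2 d and 23.9 at 6 d (mock 47.7 and 27.2).

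With signals under the floor set to it, 95 of the 289 higher probe sets changed by less than 1.5-fold in mock roots (0.683% of the 13909 measured in both pairs). For 3 more both mock arrays were under the floor. Where a mock array was under the floor the mock ratio is a lower bound, so such genes are not shown to be level. Among them, CaS was at 18.0 at 2 d and 31.9 at 6 d in mock roots, and AT1G80320 at 5.2 and 29.3. The median mock ratio of the 40 named genes among the 95 was 0.41, so they were mostly smaller steps the same way, with 36 of 40 above 0. These 40 were dimmer in exposed than in mock roots at 2 d in 35 cases and brighter at 6 d in 37. The choice of these genes fixes part of this, since the exposed ratio minus the mock ratio equals the change in the exposed-over-mock ratio from 2 d to 6 d. Besides photosynthesis genes (LHCB4.1, PSBW, PSB27 of photosystem II repair, and the thylakoid protein CaS) and low oxygen genes, the largest were bZIP58, a transcription factor, AT2G16890, and AT3G47800, of the galactose mutarotase-like family. bZIP58 was at 21.6 at 2 d and 58.1 at 6 d in exposed roots, at least 2.62-fold higher, and at 35.2 and 42.7 in mock roots. AT3G47800 was at 28.5 at 2 d and 72.2 at 6 d in exposed and 77.4 and 73.5 in mock roots. AT2G16890 was at 30.2 at 2 d and 78.2 at 6 d in exposed and 83.0 and 100.1 in mock roots, and the receptor-like kinase gene AT5G14210 at 51.7 at 2 d and 126 at 6 d (mock 69.2 and 100.3). In these 4 genes the 2 d exposed array was the dimmest of the 4 arrays.

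Of the 395 lower probe sets, 78 changed by less than 1.5-fold in mock roots on the same floored scale (0.561%), again with bounds among them. The 42 named genes among them had a median mock ratio of -0.34, and 39 were below 0. In 38 of them the exposed array was brighter than the mock array at 2 d, and in 38 it was dimmer at 6 d. As for the higher genes, the choice of these genes fixes part of this. AT1G76470, of the family of cinnamoyl-CoA reductases, fell most, at 76.3 at 2 d and 22.7 at 6 d in exposed and 45.6 and 37.0 in mock roots. AT3G08780 was at 97.7 at 2 d and 33.3 at 6 d in exposed and 99.5 and 71.3 in mock roots, and AT4G39140, of the RING finger family, at 107 at 2 d and 39.2 at 6 d (mock 88.6 and 64.8). The kinesin gene AT2G47500 was at 86.2 at 2 d and 38.8 at 6 d in exposed and 59.7 and 40.5 in mock roots. AT5G14330 moved in opposite directions, from 58.1 to 19.4 in exposed roots and from 14.5 to 31.0 in mock roots. Its 2 d mock signal was under the floor, so its mock rise of 1.4-fold on the floored scale is a lower bound. AT1G79160, AT4G12640 and AT1G67620 had log2 ratios of -1.21, -1.27 and -1.30 in exposed roots, against -0.20, -0.47 and -0.51 in mock roots. Past 3-fold, only 3 higher and 4 lower probe sets were under 1.5-fold in mock roots on the floored scale, and past 4-fold none.

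**Figure D5:**
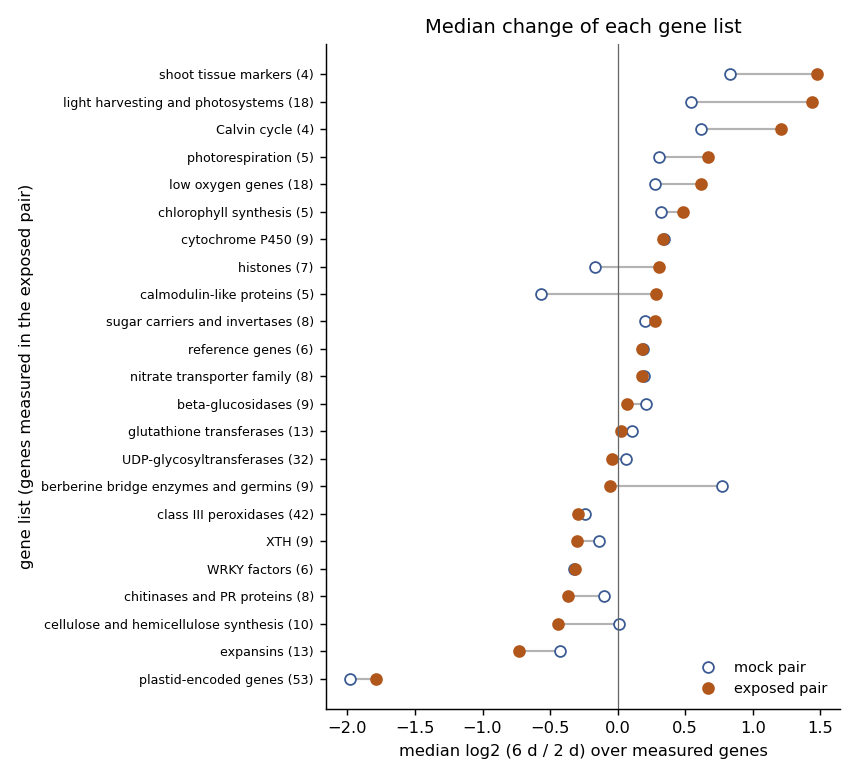
Median log2 ratio of the 6 d over the 2 d array for each gene list with at least 4 genes measured in exposed roots, in the exposed pair (filled) and the mock pair (open), with the number of measured genes in brackets. The shoot markers and the light harvesting list lie furthest to the right, at 1.48 and 1.44 in exposed roots, and plastid-encoded genes at -1.79; scaled to the hybridization controls, all points would lie about 0.84 further left, and lists between 0 and that value would change sign.

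In other lists few or no genes passed 2-fold. The 6 reference genes used for normalizing plant RNA had medians of 0.18 in exposed and 0.19 in mock roots (-0.74 and -0.71 after scaling to the hybridization controls), and none passed 2-fold. GAPC2, of glycolysis, was at 3029 at 2 d and 3715 at 6 d in exposed and 2891 and 3385 in mock roots. Among 13 glutathione transferases, 9 cytochrome P450 genes and 9 beta-glucosidases none passed 2-fold in exposed roots. The cytochrome P450 medians were 0.34 in exposed and 0.35 in mock roots. Of the 32 listed UDP-glycosyltransferases 1 passed 2-fold, UGT88A1. Its signals were 94.2 at 2 d and 222 at 6 d in exposed and 74.3 and 191 in mock roots. The list was matched by gene name and left out other members, among them AT2G16890 (2.59-fold higher in exposed roots) and IAGLU (2.36-fold lower).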

How the data were processed

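Root RNA of the 4 conditions was hybridized to Affymetrix ATH1 arrays, 1 array each, and groups were taken from the sample labels. The values that the authors deposited are linear intensities (signals of MAS5, version not stated in the processing notes) of 22810 probe sets. The study speaks of 3 independent experiments, and the sources used here do not say if these were pooled. The number of arrays limits the precision, and no test was possible.

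From these values, 64 control probe sets were left out. The 40th percentiles of the 4 arrays were averaged as log2 values to a floor of 22.2, which replaced any lower signal and was exceeded by 59.8% to 60.3% of probe sets on each array. Log2 ratios of 6 d over 2 d were formed within exposed and within mock roots, and a fold against a signal under the floor is a lower bound.

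Probe sets were named through the platform annotation, updated to TAIR10.1 by Entrez identifier, which gave 13333 genes from 13484 probe sets. Where a gene had more than 1 (145 genes), the probe set with the highest mean was used. The genes named were, in exposed roots, the 15 largest ratios in each direction where neither array was under the floor, the 8 largest bounds, the 10 largest ratios under 1.5-fold in mock roots, and as many as 6 members of a gene list, plus others on which counts turned, chosen after their values were seen. The members and the 29 gene lists were chosen with earlier results of these data known. No mitochondria-encoded gene was named.

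The alternatives were a lower and a higher floor (20th and 60th percentile), quantile normalization, loess within each pair (span 0.3), centring, scaling to hybridization controls, 32 added to each signal instead of a floor, single-gene probe sets without a cross-hybridizing suffix, no organelle genes, and limits of 3-fold and 4-fold. The counting was checked on simulated data. Python 3.11.15, numpy 2.4.6, pandas 2.3.3, statsmodels 0.14.6 and matplotlib 3.10.9 were used.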

Additional observations from a re-analysis of the deposited data

Results flagged for a closer look

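In 4 named genes the exposed and the mock pair moved in opposite directions from 2 d to 6 d, by more than 2-fold in exposed roots and by more than 1.3-fold in mock roots. AT1G19530 had a log2 ratio of 1.67 in exposed and -0.55 in mock roots, and AT4G39675 of 1.31 and -0.41, both genes of the low oxygen list. AT3G26740 (CCL) was at 34.5 at 2 d and 73.9 at 6 d in exposed roots, a log2 ratio of 1.099, and at 77.6 and 56.8 in mock roots. AT5G14330 had a log2 ratio of -1.39 in exposed and 0.48 in mock roots, with 1 array of each pair under the floor. Over all probe sets 7 met these limits, 5 of them higher and 2 lower in exposed roots. With 1 array per condition none of these differences was tested.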

How the results depend on the processing

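No paired analysis was possible because each condition has 1 array. The main counts past 2-fold were 289 higher and 395 lower in exposed roots, and 160 and 335 in mock roots. With mock roots under 1.5-fold on the floored scale, the counts in exposed roots were 95 and 78. In the same order the 6 counts were 744, 801, 531, 699, 288 and 223 when the 20th percentile set the floor, and 143, 169, 65, 140, 43 and 34 when the 60th did. Scaling to the hybridization controls gave 24, 5294, 24, 5048, 12 and 186, and adding 32 to each signal gave 113, 158, 50, 139, 32 and 13. Probe sets of 1 gene without a suffix, of which there are fewer, gave 122, 227, 78, 205, 40 and 42. A limit of 3-fold gave 56, 103, 27, 94, 3 and 4, and one of 4-fold gave 18, 55, 18, 55, 0 and 0. Under quantile normalization, loess, centring and without organelle genes all 6 counts stayed within 1.5 times.

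Scaling to the hybridization controls turned the medians of light harvesting (-0.29), Calvin cycle (-0.27) and shoot marker genes (-0.062) in mock roots, and those of low oxygen (-0.24 exposed, -0.62 mock), photorespiration (-0.25, -0.59) chlorophyll synthesis (-0.43, -0.58) and reference genes (-0.74, -0.71) in both pairs, against -0.84 over all probe sets. No other list median tried that lay more than 0.1 from 0 changed sign under any alternative. The medians of the XTH, shoot marker, photorespiration and chlorophyll lists were added to these alternatives after the data were seen. The shift of -0.84 rests on the mean of controls that differ widely and whose medians were 0.59 in exposed and 0.54 in mock roots. Signals near the floor carry the least precision.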

Other observations

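In the lists of calmodulin-like, sugar carrier, nitrate transporter and histone genes none passed 2-fold in exposed roots, with signals under the floor set to it. Ratios against such a signal, those of CML38 and HIS1-3 among them, are lower bounds. The lists do not cover calcium signalling or chromatin as a whole. The 5 measured calmodulin-like genes had a median log2 ratio of 0.28 in exposed and -0.57 in mock roots. CML38, a calmodulin-like calcium sensor, was at 20.6 at 2 d and 35.5 at 6 d in exposed roots and at 45.5 and 21.6 in mock roots. HIS1-3, a linker histone variant known from drought, was at 16.8 at 2 d and 41.7 at 6 d in exposed and 57.1 and 57.6 in mock roots, so the 2 d exposed array was the dimmest of the 4. The 8 measured genes of sugar carriers and invertases had medians of 0.28 in exposed and 0.20 in mock roots, and the 8 of the nitrate transporter family 0.18 and 0.20. The vacuolar sugar carriers SWEET16 and TMT1 were at 123 at 2 d and 173 at 6 d and at 275 at 2 d and 188 at 6 d in exposed roots, and AT1G68570, of the nitrate transporter family, at 39.2 at 2 d and 77.9 at 6 d. GID1B, a gibberellin receptor, was at 233 at 2 d and 124 at 6 d in exposed and 213 and 133 in mock roots, and all 3 receptor genes were below 0 in both pairs.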
